A study of Menidia menidia with 24 samples.

Results

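Exposure of the larva itself to low oxygen and high CO2 was compared with exposure of its parents alone in Atlantic silversides (Menidia menidia). CH larvae came from control parents and were themselves reared under HypOA, the study's name for combined hypoxia and acidification. HC larvae came from HypOA-treated parents and were reared under control conditions. These are 12 of the 24 larvae sequenced, 6 in each group, taken by the parental and rearing treatments in their labels. The other 12 larvae had neither exposure (CC, 6 larvae) or both (HH, 6 larvae) and are used here to show where the CH and HC levels lie.

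All larvae were the offspring of wild-caught fish and were frozen whole and singly at 19 days post-fertilization (dpf). Per the labels, all were kept at 20°C. CH and HH larvae were reared at 35% dissolved oxygen and 2500 µatm CO2, and CC and HC larvae at 100% and 600 µatm, again per the labels. The study's methods give somewhat different levels and a slightly different temperature. Parental HypOA was given only at night, on repeated nights before spawning, and control parents were kept in control water. The parental treatment was thus not the same dose as the rearing treatment. The study's supplement adds that on some of these nights a software fault kept HypOA from being fully reached. The gametes of each parental treatment were pooled in a single fertilization, so the treatment and the set of parents cannot be told apart. CH and HC also differ in both rearing and parentage, so a difference between them cannot be assigned to one of these from the 2 groups alone. Larvae of a group came in pairs from shared rearing containers, but the labels do not give the container. The larvae were therefore treated as independent, and the p-values measure the spread between these larvae. Where larvae of a container are alike, such p-values come out too small. The study also describes HypOA-reared larvae as hatching later, and as smaller and slightly less developed at this age. It proposes that this may account for part of the transcriptional response, which was not tested here.

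A fish larva short of oxygen depends on oxygen carriers such as hemoglobin and on the mitochondrial chain that ends in cytochrome c oxidase. Iron-sulfur clusters, built in the mitochondria on the scaffold protein ISCU, are the cofactors of several enzymes of that chain, and peroxiredoxins and superoxide dismutases remove the reactive oxygen it releases. In mammalian cells ISCU is known to fall under low oxygen. A parent's environment can act on offspring through the egg, the sperm or the set of parents that spawn, without the offspring meeting that environment.

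The 12 CH and HC libraries held 11688851 to 13194006 reads counted to genes, with CH between 11894042 and 13194006 and HC between 11688851 and 13077214. Of all reads in the count files, 68.58 to 73.35% were counted to a gene in CH and 73.04 to 74.72% in HC. Reads that fell in no gene made up 21.04 to 22.99% in CH and 19.64 to 21.07% in HC, so this share moved with the group, and its part in the results was not tested. The library labelled CH 3 stood apart, with 68.6% counted and 7.88% of reads mapping to several places, against 4.95 to 5.34% in the other 11 libraries. No pair of larvae within CH or within HC had counts that agreed within sampling noise, the lowest chi-square per degree of freedom being 13.04.

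Rearing under HypOA without exposed parents and parental HypOA without exposed rearing left larvae that differed in 50 of 17262 transcripts tested. This is 0.29% of the transcripts, called by edgeR's quasi-likelihood test at a false discovery rate (FDR, the Benjamini-Hochberg adjusted p) below 0.05. Of these 50 differentially expressed transcripts (DETs), 25 were higher and 25 lower in CH, each 0.145% of the transcripts tested. A further measure of how many transcripts leaned apart is the 2603 with an unadjusted p below 0.05, or 15.1%. The log2 fold changes of the DETs ran from -2.40 to 4.89, with a median of 0.64 among those higher in CH and -0.85 among those lower. In 36 of the 50, or 72%, the CH and HC larvae did not overlap in CPM (read counts scaled to library size with TMM factors), against 1.44% of all transcripts tested. Because the DETs were picked by the same contrast, that share describes them and tests nothing. The DETs with a gene symbol numbered 32, with 16 in each direction, and 18 had none. All 32 symbols come from the readable rows of the study's table for CH against CC, which shares the CH larvae, so every named DET had also been called there by the study and says nothing independent about CH.

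ISCU and ISCA1, a pair of factors that build mitochondrial iron-sulfur clusters, were lower in CH, and ISCU had the smallest adjusted p of all transcripts. ISCU, the scaffold on which the clusters are assembled, was at 21.1 CPM in the lowest CH larva, 26.3 in the median and 36.8 in the highest, against 49.7, 58.7 and 60.1 in HC. Every CH larva was below every HC larva. The log2 fold change was -1.06 ± 0.13 (SE, edgeR FDR = 0.000239), a level 2.09-fold lower in CH. ISCU in CC had a median of 56.9 CPM and in HH of 23.2, the first within the HC range and the second within the CH range. ISCA1, a later factor in building iron-sulfur proteins, ran from 15.99 to 32.3 CPM with a median of 22.3 in CH, and from 31.3 to 45.4 with a median of 36.2 in HC. Its groups overlapped at the edge, and the log2 fold change was -0.66 ± 0.14 (edgeR FDR = 0.0420).

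PRDX5 and SODC, enzymes that remove reactive oxygen, were lower in CH as well. PRDX5, a mitochondrial and cytosolic peroxiredoxin, had a lowest, median and highest CPM of 95.6, 109 and 119 in CH and of 127, 166 and 204 in HC. No CH larva reached the lowest HC larva, and the log2 fold change was -0.64 ± 0.11 (edgeR FDR = 0.0116). The median of PRDX5 was 163 CPM in CC and 82.5 in HH, lower than in CH. SODC, the cytosolic copper-zinc superoxide dismutase, was at 76.4, 81.4 and 89.6 CPM in CH and at 102, 111 and 128 in HC, again without overlap. Its log2 fold change was -0.45 ± 0.09 (edgeR FDR = 0.0285), with medians of 109 in CC and 78.6 in HH.

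Against these, a subunit of cytochrome c oxidase, the enzyme that passes electrons to oxygen, was higher in CH. CX6B1, cytochrome c oxidase subunit 6B1, was at 138, 175 and 235 CPM in CH and at 42.4, 59.7 and 98.2 in HC, as lowest, median and highest larva. All 6 CH larvae were above all 6 HC larvae, by 2.67-fold in the fit (log2 fold change 1.42 ± 0.22, edgeR FDR = 0.00588). The CC and HH medians were 49.96 and 154 CPM. Of the 11 transcripts listed for redox, iron-sulfur and cytochrome oxidase, 5 were called, ISCU, ISCA1, PRDX5 and SODC lower and CX6B1 higher, and all 11 had an unadjusted p below 0.05, 4 higher and 7 lower. Over all transcripts 0.29% were called and 15.1% had such a p, but the members of this list, as of the others, were taken from transcripts called in CH against CC on the same CH larvae. The median log2 fold change of the list was -0.46, against 0.00 over all transcripts tested. Unlike PRDX5 and SODC, the listed glutathione peroxidase GPX3 had a positive log2 fold change, without a call (0.60, edgeR FDR = 0.0853).

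**Figure D1:**
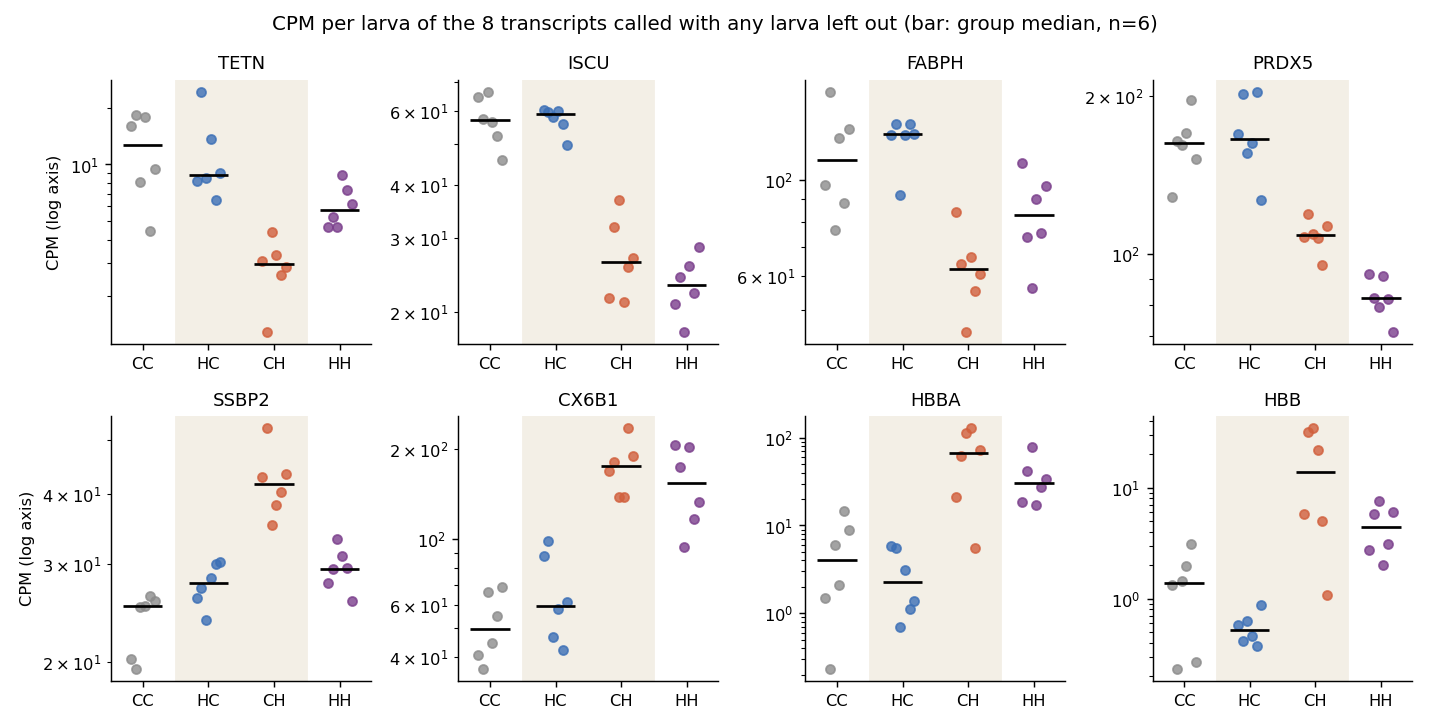
CPM per larva on a log axis for 8 DETs in the CC, HC, CH and HH groups, with a point per larva and a bar at the median of 6 larvae, and with HC and CH shaded. These are the DETs that stayed below the FDR threshold when any of the 24 larvae was left out, and in all of them except HBBA the HC and CH points do not overlap.

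A pair of beta-hemoglobins had the largest fold changes of the DETs, both higher in CH. HBB (mme15344) was at 1.09 CPM in the lowest CH larva, 13.9 in the median and 34.3 in the highest, and at 0.375, 0.522 and 0.872 CPM in HC. The HC larvae held only 5 to 10 reads of it each, and CH larvae 13 to 446, so the groups did not overlap but the HC level rests on few reads. The log2 fold change was 4.89 ± 0.69 (edgeR FDR = 0.00175), or 29.7-fold. HBBA (mme15343) had 5.55, 67.6 and 128 CPM in CH and 0.702, 2.27 and 5.83 in HC, with the lowest CH larva, CH 5, under the highest HC larva, HC 1. Its log2 fold change was 4.51 ± 0.74 (edgeR FDR = 0.00868). CH 6 was high for HBBA, at 73.1 CPM, yet lowest for HBB, at 1.09, and how reads were split between related hemoglobin genes is uncertain in these counts. The CC and HH medians were 1.39 and 4.43 CPM for HBB and 4.06 and 30.8 for HBBA. Under limma-voom neither was called (adjusted p = 0.0970 for HBB and 0.0656 for HBBA).

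The other 7 of the 9 transcripts listed for globins and heme synthesis were not called. All 9 had a positive log2 fold change, the sign of 50.5% of all transcripts, and the median was 0.80. At an unadjusted p below 0.05, 7 of the 9 were higher, against 7.45% of all transcripts. HEM0, the erythroid enzyme of the first step of heme synthesis, gave 0.80 (edgeR FDR = 0.21) and TAL1, a transcription factor of blood formation, 0.52 (edgeR FDR = 0.22). The summed CPM of the 6 erythroid marker transcripts, HBB and HBBA among them, was 59.5 to 274 with a median of 167 in CH and 38.01 to 63.03 with a median of 58.9 in HC, and each marker had reads in every larva. In whole larvae, fewer cells of a type and less RNA per cell cannot be told apart, and the part of blood cell number in these values was not tested.

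The DETs FABPH, ABCA1 and PAG15, whose proteins handle lipids, were lower in CH. FABPH, the heart-type fatty acid binding protein, was at 44.5, 62.3 and 84.3 CPM in CH and at 92.1, 127 and 134 in HC, without overlap (log2 fold change -0.98 ± 0.17, edgeR FDR = 0.0149). ABCA1, which exports cholesterol from cells, was at 58.6, 68.9 and 93.2 CPM in CH and at 105, 135 and 173 in HC. The CH and HC larvae did not overlap, the log2 fold change was -0.92 ± 0.17 (edgeR FDR = 0.0193), and the HH median of 112 lay nearer to HC. PAG15, a lysosomal phospholipase A2, ran from 26.2 to 48.9 CPM in CH and from 50.5 to 72.4 in HC, with a log2 fold change of -0.74 ± 0.16 (edgeR FDR = 0.0420). For FABPH the CC and HH medians were 111 and 82.8 CPM.

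GATM was higher in CH, whereas ASSY and SFXN1, which also belong to amino acid metabolism, were lower. GATM, which makes the precursor of creatine from arginine and glycine, was at 506, 864 and 1761 CPM in CH and at 371, 483 and 534 in HC, the CH 3 larva alone lying below the highest HC larva. Its log2 fold change was 1.04 ± 0.21 (edgeR FDR = 0.0347). ASSY, argininosuccinate synthase, was lower in CH, at 46.1, 48.2 and 68.9 CPM against 65.2, 83.0 and 101 (log2 fold change -0.67 ± 0.14, edgeR FDR = 0.0347), with CH 3 the only CH larva above the lowest HC larva. SFXN1, known in human cells as a mitochondrial serine transporter, was at 7.47, 9.01 and 10.4 CPM in CH and at 11.996, 15.7 and 20.6 in HC, with no overlap (log2 fold change -0.83 ± 0.17, edgeR FDR = 0.0389). None of the 21 transcripts listed for mitochondrial fuel and amino acid catabolism was called, against 0.29% of all transcripts. All 21 had negative log2 fold changes, the sign of 49.5% of all transcripts. Lower at an unadjusted p below 0.05 were 17, against 7.63% of all transcripts. BCAT1, a branched-chain aminotransferase, came nearest, with a log2 fold change of -0.73 (edgeR FDR = 0.0554) and no overlap between CH and HC, followed by PYC (mme17766), pyruvate carboxylase, at -0.47 (edgeR FDR = 0.0646). The median of this list was -0.41 in CH against HC, and -0.26 in HH against HC, 2 comparisons that share the HC larvae.

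Among lectins and immune transcripts, a pair of lectins was lower in CH while an adaptor and a chemokine were higher. TETN, tetranectin, a plasminogen-binding lectin, was at 1.29, 2.97 and 4.38 CPM in CH and at 6.45, 8.78 and 24.3 in HC, 3.98-fold lower in CH in the fit with no overlap (log2 fold change -1.99 ± 0.35, edgeR FDR = 0.0137). COL11, collectin-11, a lectin that starts complement activation, was at 0.307, 1.69 and 2.34 CPM in CH and at 3.05, 6.91 and 16.2 in HC, also with no overlap (log2 fold change -2.34 ± 0.47, edgeR FDR = 0.0336). MYD88, the adaptor of Toll-like receptors, was instead higher in CH, at 95.3, 110 and 131 CPM against 80.1, 86.1 and 93.5 in HC (log2 fold change 0.39 ± 0.08, edgeR FDR = 0.0420). SDF1, the chemokine CXCL12, was also higher, at 8.91, 20.8 and 31.1 CPM against 8.79, 10.1 and 13.9. There CH 3 alone lay within the HC range (log2 fold change 0.94 ± 0.19, edgeR FDR = 0.0328). Of the 20 listed immune transcripts MYD88 was the called one, against 0.29% of all transcripts. Lower in CH at an unadjusted p below 0.05 were 15 of the others, against 7.63% of all transcripts. TNAP3, a brake on NF-kB signalling, had the smallest p after MYD88 (log2 fold change -0.76, edgeR FDR = 0.0638). The largest of these differences were in CO4, complement component C4 (log2 fold change -3.84, edgeR FDR = 0.067), and CLC4E, a C-type lectin receptor (log2 fold change -2.97, edgeR FDR = 0.16).

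SHH was higher and MYPR lower in CH. SHH, the sonic hedgehog morphogen, was at 9.68, 13.5 and 21.6 CPM in CH and at 4.76, 6.28 and 10.9 in HC, with a slight overlap (log2 fold change 1.13 ± 0.21, edgeR FDR = 0.0226). MYPR, myelin proteolipid protein, was at 5.84, 7.57 and 9.94 CPM in CH and at 8.89, 14.8 and 19.6 in HC (log2 fold change -0.90 ± 0.18, edgeR FDR = 0.0336). Its HH median of 13.1 lay near HC. The 5 neuron markers summed to 501 to 580 CPM in CH and 402 to 501 in HC, and the 4 retina markers to 57.8 to 71.2 and 46.6 to 64.7. In CC these sums were lower, at 279 to 436 for neuron and 34.1 to 51.1 for retina. Whether this share of neural RNA bears on these values was not tested.

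No member of the transmitter release, receptor or ion channel lists was called, with 41, 25 and 37 transcripts, against 0.29% of all transcripts. Higher in CH at an unadjusted p below 0.05 were 16, 12 and 16 of them, against 7.45% of all transcripts, and lower were 1, 2 and 3. Their median log2 fold changes were 0.22, 0.35 and 0.24. Among receptors the smallest p belonged to GRIA3, an AMPA-type glutamate receptor subunit, at 21.5, 29.3 and 32.5 CPM in CH and 14.02, 19.4 and 21.9 in HC (log2 fold change 0.62 ± 0.16, edgeR FDR = 0.0826). HOME1, a scaffold of glutamate receptors, followed at -0.53 ± 0.14 (edgeR FDR = 0.0840). In the transmitter release list the GABA transporters S6A13 and SC6A1 had opposite signs, with log2 fold changes of -1.23 ± 0.29 (edgeR FDR = 0.0638) and 0.44 ± 0.12 (edgeR FDR = 0.0853). Among ion channels CA2D1 (mme17298), an auxiliary calcium channel subunit, had the smallest p, at -0.81 ± 0.18 (edgeR FDR = 0.0507) with no overlap between CH and HC.

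Within the 33 neural and retinal development transcripts SHH was called, against 0.29% of all transcripts. Of the 33, 32 had a positive log2 fold change, the sign of 50.5% of all transcripts. Higher in CH at an unadjusted p below 0.05 were 9, against 7.45% of all transcripts. HES5 (mme02898), a transcription factor of the Notch pathway, had the next smallest p after SHH (0.49 ± 0.13, edgeR FDR = 0.0939). In the acid-base and ion transport list of 10 none was called, 2 were higher and 1 lower at that level, and the median was 0.17. The smallest p there belonged to CLCN7, a lysosomal chloride transporter (-0.34 ± 0.12, edgeR FDR = 0.173), and S4A10, a bicarbonate transporter (0.31 ± 0.14, edgeR FDR = 0.297). Of the 20 splicing transcripts none was called, and 14 were higher and 2 lower at an unadjusted p below 0.05. The shares of all transcripts were 7.45% and 7.63%, with 0.29% called. RBM5, a splicing regulator, came nearest to a call, at a log2 fold change of 0.53 ± 0.12 (edgeR FDR = 0.0507) with no overlap between groups. RU17, a spliceosome protein, was next at 0.45 ± 0.11 (edgeR FDR = 0.0638).

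Log2 fold changes were negative for 28 of 32 muscle and sarcomere transcripts and 52 of 62 collagens and matrix transcripts, with 1 called in each list. Over all transcripts 49.5% were negative and 0.29% were called. At an unadjusted p below 0.05, 7.45% of all transcripts were higher and 7.63% lower. RYR1, the calcium release channel of skeletal muscle, was at 36.6, 55.4 and 70.9 CPM in CH and at 66.7, 116 and 227 in HC, with a small overlap (log2 fold change -1.22 ± 0.26, edgeR FDR = 0.0420). Of 32 muscle and sarcomere transcripts it was the one called, and 16 were lower and 1 higher at an unadjusted p below 0.05, with a list median of -0.45. MYMK, the myoblast fusion protein myomaker, gave -1.49 ± 0.36 (edgeR FDR = 0.0638). The 6 skeletal muscle markers, RYR1 included, summed to 1534 to 3531 CPM with a median of 1896 in CH and to 1936 to 5723 with a median of 3503 in HC, and the part of muscle mass in these values was not tested. CO9A3, a chain of cartilage collagen IX, went the other way, at 205, 234 and 293 CPM in CH and 125, 146 and 207 in HC (log2 fold change 0.61 ± 0.13, edgeR FDR = 0.0439). It was the one called of 62 collagens and matrix transcripts, of which 7 were higher and 17 lower at an unadjusted p below 0.05, with a median of -0.39. MMP15, a membrane-bound matrix metalloproteinase, had the next smallest p in that list (-0.76 ± 0.17, edgeR FDR = 0.0507).

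None of the 14 pancreatic digestive enzymes was called, against 0.29% of all transcripts, although their list had the lowest median. TRY1 (mme06220), a trypsin, was at 0.167, 1.14 and 3.42 CPM in CH and at 2.09, 7.23 and 41.6 in HC, with a log2 fold change of -3.28 ± 1.07 (edgeR FDR = 0.146). TRY3, another trypsin, gave -2.87 ± 1.07 (edgeR FDR = 0.204). TRY1 in HC larvae spread over more than an order of magnitude. Of the 14, 6 were lower in CH at an unadjusted p below 0.05, against 7.63% of all transcripts, with a list median of -1.39. The 9 pancreas markers summed to 7.45 to 33.9 CPM in CH and 25.9 to 140 in HC, none was at 0 in all larvae of a group, and 7 had reads in every CH larva.

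**Figure D2:**
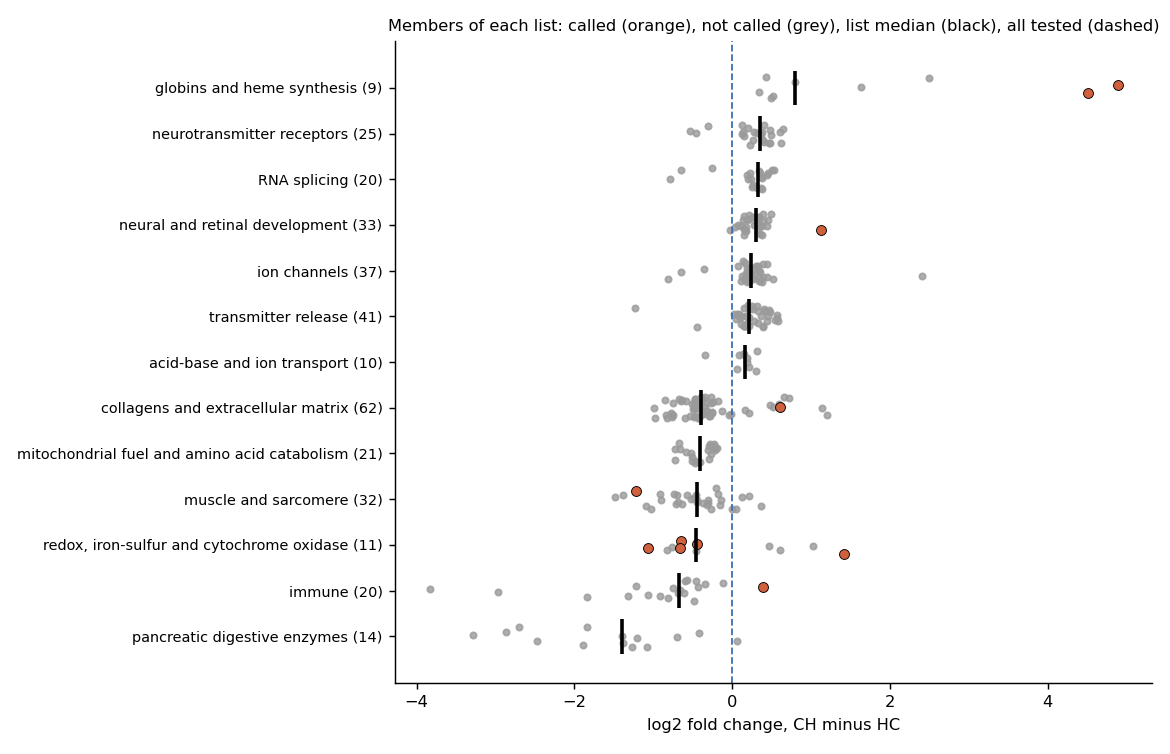
Log2 fold change (CH minus HC) of each transcript in the 13 lists, with the number tested in brackets, called transcripts in orange, others in grey, list medians as black bars and the median of all 17262 transcripts as a dashed line. Globins lie furthest right and pancreatic enzymes furthest left by median, and most members of each list are grey.

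In all, 11 of the 335 list members were called, or 3.28%, against 0.29% of all transcripts tested. Every member came from the table of CH against CC, so each had been called on the same CH larvae, and neither this share nor the direction of a list is independent of them. HH against HC compares neither CH nor CC larvae, though it shares HC and the fit of all groups that set the spread. Its list medians were 0.91 for globins, -1.80 for pancreatic enzymes and 0.23 for transmitter release, larger in size than in CH against HC. In the other lists the median log2 fold change was smaller in size, as for splicing (0.07), immune (-0.20) and acid-base transcripts (0.03). At an unadjusted p below 0.05, 1 splicing transcript was higher and 5 immune ones lower, against 660 and 762 of all 17262. HC was not at the CC level in several lists. Median log2 fold changes, HC minus CC, were -2.10 for pancreatic enzymes, -0.59 for collagens and matrix, 0.39 for neural and retinal development and 0.33 for transmitter release. They were 0.04 for splicing and, with the sign opposite to CH minus HC, 0.04 for redox. The CC larvae also served to pick the members, and no transcript was called in HC against CC.

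The remaining named DETs had varied roles and belonged to no list. SSBP2, a single-stranded DNA binding protein that takes part in transcription complexes, was at 35.2, 41.6 and 52.3 CPM in CH and at 23.8, 27.7 and 30.2 in HC, without overlap (log2 fold change 0.61 ± 0.10, edgeR FDR = 0.0116). Its CC and HH medians, 25.1 and 29.4 CPM, both lay near HC. Also higher in CH were KC1E, casein kinase I epsilon of the circadian clock (0.54 ± 0.11, edgeR FDR = 0.0328), PKCB1, a chromatin reader known as ZMYND8 (0.52 ± 0.10, edgeR FDR = 0.0328), and TOP1, DNA topoisomerase I (0.62 ± 0.13, edgeR FDR = 0.0420), all as log2 fold changes. T179A, a transmembrane protein, had 32.9, 37.3 and 45.3 CPM in CH against 19.04, 23.05 and 24.1 in HC (0.77 ± 0.15, edgeR FDR = 0.0285), and GLT17, a glycosyltransferase-family protein, 25.2, 32.6 and 40.1 against 15.5, 21.1 and 21.8 (0.73 ± 0.15, edgeR FDR = 0.0347). KT5AA (0.62, edgeR FDR = 0.0420) and CK095 (0.62, edgeR FDR = 0.0411) were higher too.

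Lower in CH were RAB12, a small GTPase of membrane traffic, with 8.76, 9.77 and 12.97 CPM in CH against 13.9, 18.9 and 22.7 in HC (log2 fold change -0.91 ± 0.18, edgeR FDR = 0.0285), and ZER1, a substrate receptor of a ubiquitin ligase, with 5.17, 7.54 and 8.57 against 9.22, 12.05 and 14.2 (-0.75 ± 0.15, edgeR FDR = 0.0328). Neither overlapped between the groups. PURG, a purine-rich element binding protein, had a log2 fold change of -0.80 ± 0.17 (edgeR FDR = 0.0420). Among the 18 DETs without a symbol, mme03556 (0.93) and mme19973 (1.03) had the largest log2 rises of those whose larvae did not overlap, and mme00756 (-2.40) and mme11942 (-1.07) the largest falls. No symbol was read for any of them in the annotation used here.

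The groups with both or neither exposure show where each DET difference lay. For 44 of the 50 DETs, or 88%, the CC mean lay nearer to HC than to CH, against 61.8% of all transcripts tested. For 27 of 50, or 54%, the HH mean lay nearer to CH, against 42.5% of all. Joined, 24 DETs (48%, against 27.2% of all transcripts) were ordered by rearing, with CC nearer to HC and HH nearer to CH. In 20 (40%, against 34.6%) both lay nearer to HC, a class called CH apart. Parentage ordered 3 (6%, against 23%), with CC nearer to CH and HH nearer to HC. In 3 (6%, against 15.2%) both lay nearer to CH, a class called HC apart. The classes only say which mean was nearer, so a group could still lie between CH and HC. Among those classed CH apart, HH minus HC was -0.93 for TETN, against -1.99 in CH minus HC, and 0.09 for SSBP2, against 0.61. All 32 DETs with a symbol were in the first pair of classes, 18 by rearing and 14 with CH apart, and so the 6 that were ordered by parentage or set HC apart had no symbol. Since a symbol was to be had only for transcripts called in CH against CC, that sorting of names follows from the annotation. The DETs were chosen for a wide gap between CH and HC, so the shares of all transcripts are a backdrop and not a test.

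**Figure D3:**
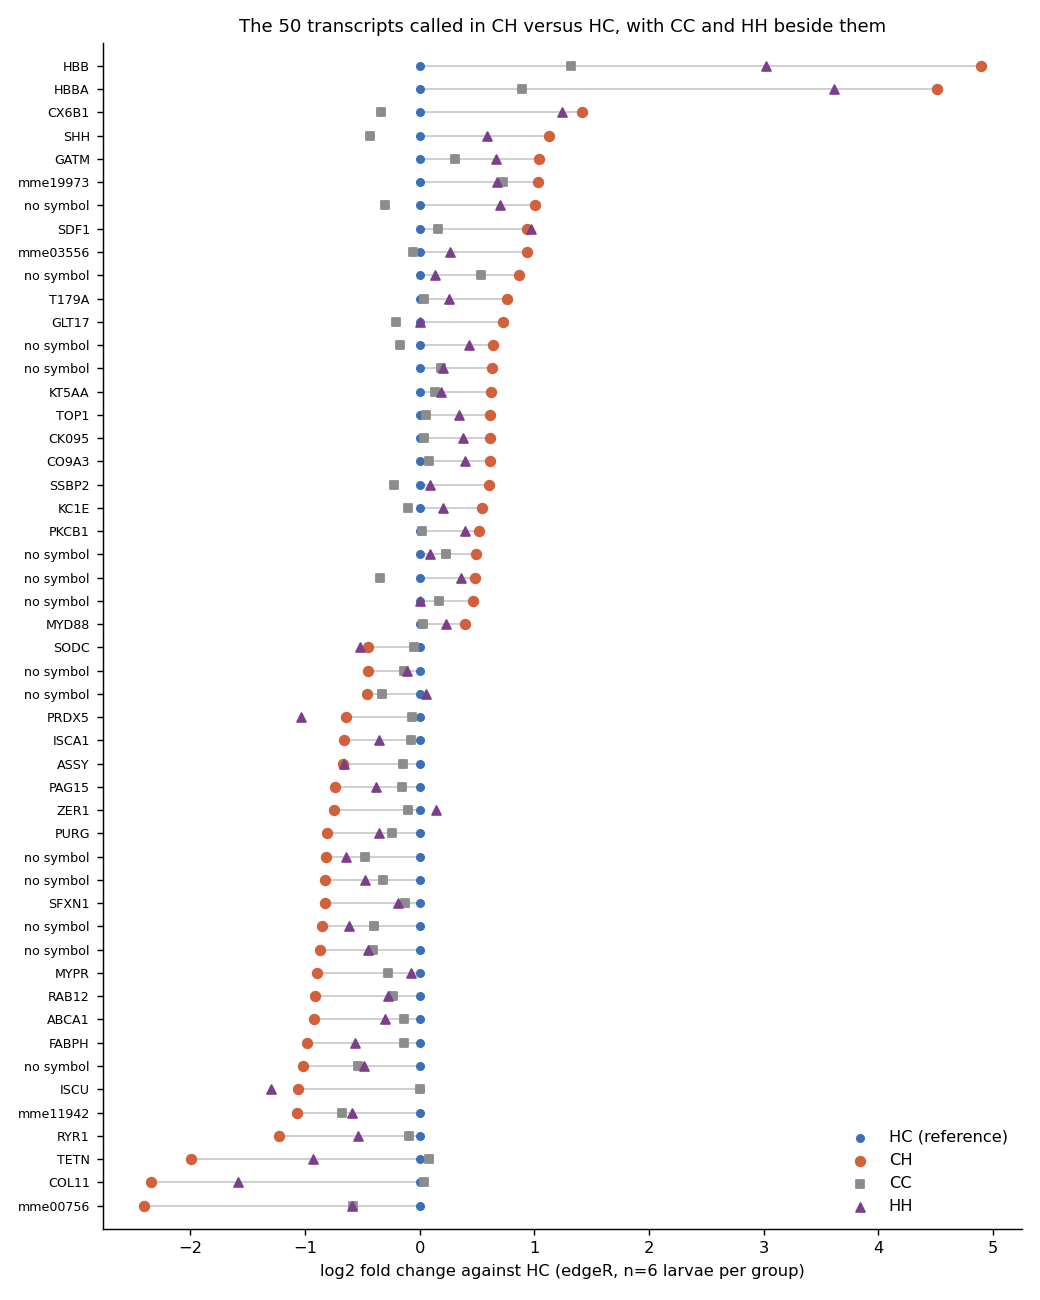
Log2 fold change against HC of CH (orange circles), CC (grey squares) and HH (purple triangles) for the 50 DETs, ordered by CH minus HC, with HC at 0. ISCU, PRDX5 and CX6B1 have HH beside or beyond CH, while in SSBP2, GLT17, MYPR and ZER1 both HH and CC lie nearer to HC.

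HH against CC is the one further contrast that shares no larva with CH against HC, and it sets larvae with both exposures against larvae with neither. Both contrasts came from the same fit of all groups, however, so CC and HH larvae helped set the spread by which the 50 DETs were picked. In a fit of the CH and HC larvae alone, 17 of the 50 were called. In HH against CC, 40 of the 50 DETs went in the direction of CH against HC, and 14, or 28%, were called. These calls used that same spread, so their share is not independent of how the DETs were picked. Of these 14, 13 had the same direction, and 10 had a symbol. The called ones included ISCU, with a log2 fold change (HH minus CC) of -1.30 (edgeR FDR = 5.53e-06), PRDX5 (-0.96, edgeR FDR = 3.61e-05), CX6B1 (1.58, edgeR FDR = 0.000279), SODC (-0.48, edgeR FDR = 0.00185), SHH (1.02, edgeR FDR = 0.00477) and HBBA (2.73, edgeR FDR = 0.0138), whereas HBB was not called (1.70, edgeR FDR = 0.0798). Across all transcripts 8.81% were called there, with 47.4% higher and 52.6% lower in HH at any p. The share of all transcripts with the same direction in both contrasts was not counted, so the 40 of 50 stand without a backdrop. Values without a call included ABCA1 at -0.16 (edgeR FDR = 0.570), RAB12 at -0.05 (0.894), SFXN1 at -0.06 (0.858) and ZER1 at 0.24 (0.296), against -0.92, -0.91, -0.83 and -0.75 in CH minus HC. Whether the CH against HC difference itself differed from that of HH against CC was not tested.

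Whole profiles of CH and HC larvae also differed when each larva was taken as independent. Group membership took up 15.7% of the summed squared Manhattan distances between the 12 larvae (R2 = 0.157, exact permutation p = 0.0303 over the 924 splits). The mean absolute difference in log2 CPM per transcript was 0.460 between a CH and an HC larva, 0.457 between CH larvae and 0.401 between HC larvae. All 6 HC larvae lay nearer on average to the other HC larvae than to CH, as did 4 of 6 CH larvae to CH, the exceptions being CH 3 and CH 4. Measured against all groups, 5 of 6 CH larvae and 4 of 6 HC larvae had HH as their nearest group by mean distance, and none had CC. A mean distance to a group also grows with the spread within that group, so none of these counts measures likeness alone. The study reports more variation within CC and CH than within HC and HH. CH larvae lay at a mean of 0.446 from HH larvae, below the 0.457 among themselves. Without CH 3 the R2 was 0.181 (exact permutation p = 0.0260). Without HC 2 or HC 4 it was 0.158 and 0.146, and the exact permutation p was 0.0519 and 0.0693.

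With all 12 larvae in, CH larvae varied more among themselves than HC larvae. The median variance of log2 CPM was 0.103 in CH and 0.0763 in HC, a difference of 0.0267 (exact permutation p = 0.0238, two-sided, 924 splits), and the variance was larger in CH for 61.9% of transcripts. The call was lost in 8 of the 12 settings that left out a CH or HC larva, namely CH 1 (difference 0.0262), CH 2 (0.0131), CH 3 (0.0184), CH 4 (0.0253), CH 6 (0.0261), HC 1 (0.0272), HC 2 (0.0281) and HC 4 (0.0252). The highest of these exact permutation p-values was 0.167, without CH 2.

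The number of DETs rested on single larvae more than their directions did. No DET changed sign with any of the 24 larvae left out. The count fell to 11 when HC 4 or HC 6 was omitted. Omitting CH 2 left 13 calls, HC 1 left 14, CH 4 left 15, HC 3 left 17, HC 2 left 18, CH 1 left 19 and HH 1 left 31. It rose to 173 on omitting HC 5 and to 88 on omitting CC 1. Leaving out CH 3, the library that stood apart, gave 72 DETs, of which 40 were among the 50. Still called under every one of the 24 omissions were 8 DETs, SSBP2, PRDX5, ISCU, FABPH, TETN, HBBA, HBB and CX6B1, with highest adjusted p-values of 0.00131 for ISCU, 0.0114 for HBB, 0.0263 for HBBA and CX6B1 and 0.0413 for the other 4 (edgeR). The other 42 lost the call without at least one larva. Of the named ones, ABCA1 lost the call in 2 settings (highest edgeR FDR 0.0547, without CH 2) and SHH in 3 (0.0665, without HC 4). SODC lost the call in 4 (0.0626, without HC 2), whereas ISCA1, CO9A3 and TOP1 lost it in 12 each (up to 0.113, for CO9A3 without HC 2). PAG15 and mme19973 lost the call in 14 settings each, and for both the adjusted p was highest without HC 4. Under limma-voom the named DETs HBB, HBBA, GATM, SFXN1, TOP1, COL11, MYPR, PURG, SDF1, RYR1 and mme00756 were not called, with adjusted p-values of 0.0517 for mme00756 to 0.0970 for HBB.

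**Figure D4:**
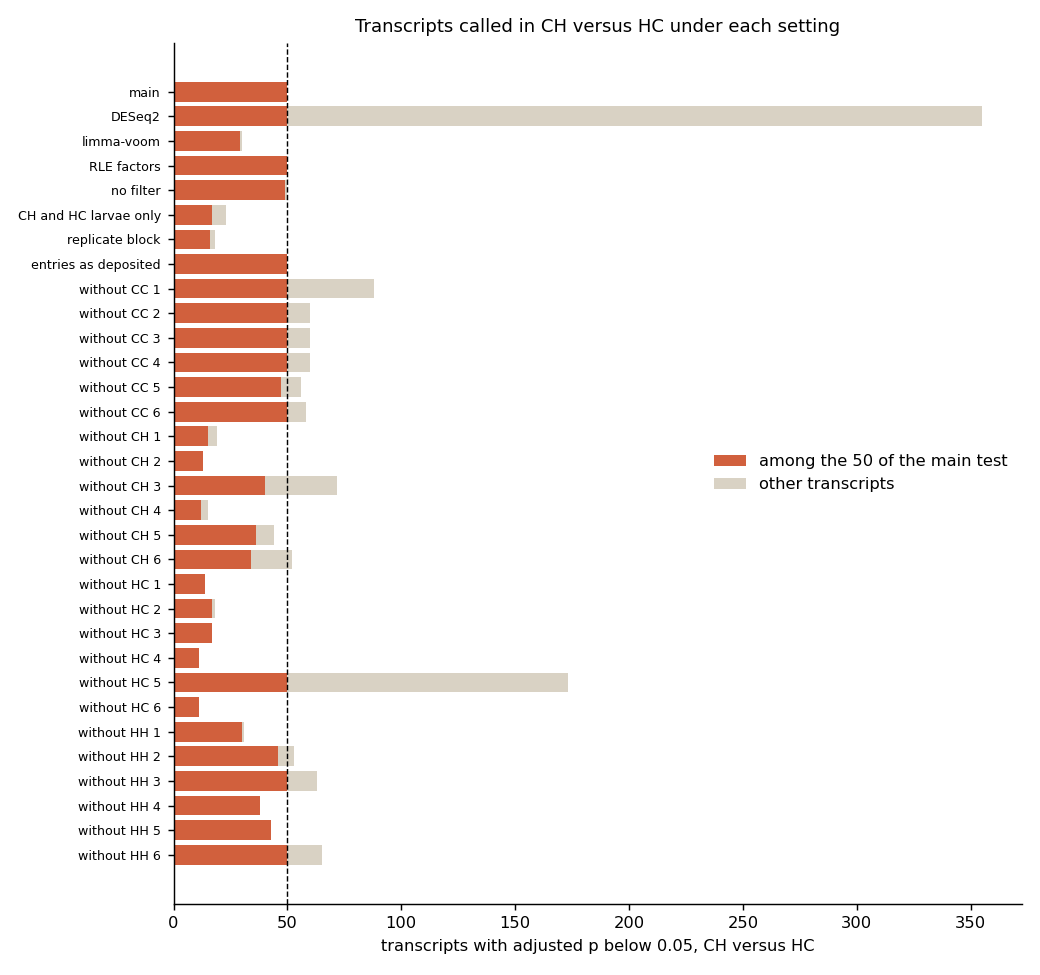
Number of transcripts with an adjusted p below 0.05 in CH against HC under each test and with each larva left out, split into those among the 50 DETs of the main test (orange) and others (beige), with a dashed line at 50. The count runs from 11 without HC 4 or HC 6 to 173 without HC 5 and 355 under DESeq2.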

How the data were processed

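RNA-seq counts of 24 whole larvae were analysed, 6 per group, grouped by the parental and rearing treatments in the labels. The authors trimmed the reads, aligned them to a Menidia menidia genome with STAR 2.6.1d and deposited raw read counts per gene from HTSeq 0.11.1. The sources used here name no strand setting for counting. The processing notes name Trimmomatic and the study's methods another trimmer. The 5 summary lines of each file were dropped and the 20651 entries summed to 20210 genes, called transcripts here. In R 4.3.3, edgeR 4.0.16 (filterByExpr with groups, minimum count 10 and minimum total 15, TMM, quasi-likelihood test, 1 coefficient per group) left 17262 transcripts, with Benjamini-Hochberg adjustment over all of them. Log2 CPM used a prior count of 2. Totals of 11688851 to 16120500 counted reads per larva set the precision. Profiles and variances were tested by exact permutation over larvae, without keeping larvae of a container together. For variances each transcript was first centred within its group, so those p-values are approximate although every split was enumerated. DESeq2 1.42.0, limma 3.58.1, other filters, factors, larvae and a replicate block were the alternatives.

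The text names every DET with a symbol, 2 rising and 2 falling DETs without one, and in each of 13 lists the 2 members with the smallest unadjusted p. A few more were named after their values were seen (HBBA mme15342, HEM0, TAL1, CO4, CLC4E, GPX3). Members and lists were chosen with earlier results of these data known. Symbols were read from 1299 annotated rows of the study's table, 1208 with a symbol, as assigned by its authors. Sequences were not used here. The edgeR test of CH against HC was tried on simulated counts with known changes, drawn as independent larvae. The permutation tests were not tried in this way.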

Additional observations from a re-analysis of the deposited data

Results flagged for a closer look

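Of 108 groups of 6 larvae, CH and HC for each of the 54 named transcripts, 7 held a larva whose gap to its nearest neighbour exceeded Dixon's 95% critical share of the group's range, where chance gives about 1 in 20. Among lower outliers, HC 3 had 92.1 CPM of FABPH against 126 to 134 in the other HC larvae, HC 4 had 19.04 CPM of T179A against 22.5 to 24.1, and HC 2 had 15.5 CPM of GLT17 against 19.8 to 21.8. CH 1 had 0.0835 CPM of mme00756 against 2.58 to 6.99 in the other CH larvae. Among higher outliers, CH 6 had 12.97 CPM of RAB12 against 8.76 to 10.0, and CH 3 had 68.9 CPM of ASSY against 46.1 to 49.9.

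KCNH8, a voltage-gated potassium channel, was at 23.1 CPM in CH 5 and at 1.11 to 1.59 in the other CH larvae. The HC larvae ran from 0.610 to 1.4995 CPM, so the log2 fold change of 2.41 (edgeR FDR = 0.0939) rests on that 1 larva.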

How the results depend on the processing

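Of the 50 DETs, DESeq2 called all 50 (355 in total), limma-voom 29 (30 in total) and a fit of the CH and HC larvae alone 17 (23 in total). RLE factors, no filter on low counts and entries as deposited each gave 50. With 1 larva left out the count ran from 11 to 173, the R2 from 0.146 to 0.185 and the variance difference from 0.0131 to 0.0361. With transcripts of a mean log2 CPM above 3 the variance difference was 0.0181 (exact permutation p = 0.0693). The cause of these shifts was not tested. Same-numbered CH and HC larvae correlated at -0.165 to 0.245, 4 of 6 pairs above 0.1, and 2 of 6 CH larvae best with their own number. The replicate numbers were not used as a pairing in the main test. Per the study's supplement, CH and HC larvae were reared in separate tanks. These correlations therefore cannot show whether the numbers mark a shared tank or container. With the replicate block 18 transcripts were called, 16 of them among the 50. Over all alternatives no named transcript reversed, 287 values lost the call, 45 gained it and 1341 kept their side of the threshold. HBB rests on 5 to 10 reads per HC larva.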
